A study of Mus musculus with 18 samples.

Results

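The expression of 10 genes of the trophoblast and placenta was followed through dopaminergic differentiation of control and HPRT-knockdown mouse ESD3 cells: Ctsj, Prl2a1, Tpbpa, Krt8, Krt18, Plac1, Cdx2, Gata3, Hand1 and Ascl2. They were found on the array by symbol, and these 10 of 30869 symbols were carried by 12 of 45281 probes. The set was chosen by the difference in signal between knockdown and control ES cells, so values that involve ES cells are described for them without a test, and tests were kept for the later stages.

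RNA of 6 conditions was measured with Illumina's MouseWG-6 v2 BeadChip on 18 arrays, 3 to a condition. D3 embryonic stem (ES) cells of strain 129s2/SvPas, which are kept on primary mouse embryo fibroblast feeders with LIF, carried a viral shRNA against HPRT (HPRT knockdown) or one against luciferase (control). Both cell types were sampled as ES cells, as spherical neural masses (SNM), an intermediate stage of floating aggregates, and as differentiated cells at the neuronal stage. Since RNA of independent cultures had been pooled first, the 3 arrays of a condition read the same pool. The SDs, standard errors and p-values below therefore reflect variation among arrays alone, and the variation among cultures is unknown. In such bulk RNA, fewer cells that express a gene and less RNA of it per cell cannot be told apart.

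The trophoblast is the outer lineage of the mouse embryo and builds the fetal part of the placenta. Cdx2 and Gata3 are transcription factors that establish it in the trophectoderm, the first epithelium of the embryo, and Krt8 and Krt18 pair into the keratin filaments of that epithelium. Ascl2 and Hand1 are basic helix-loop-helix factors, the first needed for the spongiotrophoblast and the second for trophoblast giant cells. Plac1 is a placental gene of the X chromosome. The cathepsin Ctsj, the prolactin-related hormone Prl2a1 and Tpbpa, a protein of spongiotrophoblast cells, belong to rodent-specific placental gene clusters on chromosome 13. Most of these genes are not confined to the placenta: simple epithelia such as gut and visceral endoderm also make Krt8 and Krt18, the hindgut expresses Cdx2, heart and sympathetic precursors express Hand1, and sympathetic neurons and other cells express Gata3.

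The upstream sequences of the chromosome 13 genes are shown because Ctsj and Prl2a1, which differed most between knockdown and control ES cells, lie in clusters of related genes whose values are set beside theirs further on. Each line gives the 250 bases before the annotated start of transcription, 5′ to 3′ on the gene's strand, from RefSeq on GRCm38.p6. Capitals mark 3 motifs, searched on both strands and chosen after these windows had been read. The first is CCAAT, which reads as ATTGG on the opposite strand. Another is TTTAAA, found in the cathepsin windows. The last is TATATA, found in the prolactin windows. No matches overlapped.
Ctsj, chr13:61005926-61006175, minus strand: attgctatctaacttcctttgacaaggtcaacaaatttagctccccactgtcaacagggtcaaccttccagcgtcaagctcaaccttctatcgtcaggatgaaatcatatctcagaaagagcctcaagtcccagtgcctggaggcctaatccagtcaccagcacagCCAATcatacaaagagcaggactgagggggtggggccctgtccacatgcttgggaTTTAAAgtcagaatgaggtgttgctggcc
Ctsq, chr13:61040598-61040847, minus strand: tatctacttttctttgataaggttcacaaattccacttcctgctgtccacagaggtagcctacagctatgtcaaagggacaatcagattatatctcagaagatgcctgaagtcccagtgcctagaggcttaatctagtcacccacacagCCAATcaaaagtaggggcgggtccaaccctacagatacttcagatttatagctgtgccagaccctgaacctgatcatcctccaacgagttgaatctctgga
Tpbpa, chr13:60941937-60942186, minus strand: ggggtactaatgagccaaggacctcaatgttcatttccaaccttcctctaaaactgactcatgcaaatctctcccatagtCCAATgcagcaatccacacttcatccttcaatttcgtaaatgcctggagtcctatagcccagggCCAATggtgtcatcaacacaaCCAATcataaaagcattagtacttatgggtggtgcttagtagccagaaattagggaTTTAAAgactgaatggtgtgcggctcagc
Prl2a1, chr13:27801405-27801654, plus strand: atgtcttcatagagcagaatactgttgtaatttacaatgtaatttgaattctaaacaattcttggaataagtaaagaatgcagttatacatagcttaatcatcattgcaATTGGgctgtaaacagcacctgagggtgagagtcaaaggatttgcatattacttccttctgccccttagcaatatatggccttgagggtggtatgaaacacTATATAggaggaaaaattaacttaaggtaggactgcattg
Prl4a1, chr13:28015962-28016211, plus strand: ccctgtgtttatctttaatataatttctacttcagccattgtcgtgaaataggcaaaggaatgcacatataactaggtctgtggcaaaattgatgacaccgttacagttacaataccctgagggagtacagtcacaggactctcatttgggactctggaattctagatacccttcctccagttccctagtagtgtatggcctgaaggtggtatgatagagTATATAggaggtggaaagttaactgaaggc

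Tpbpa, Ctsj and Ctsq are consecutive protein-coding genes, and their upstream windows were alike. Ctsj and Ctsq shared 157 of 210 aligned bases (74.8%), and Ctsj and Tpbpa shared 152 of 213 (71.4%). Against the 7 other placental cathepsins, Ctsj shared between 62.7% and 74.8%. The windows of Prl2a1 and Prl4a1 shared 154 of 216 bases (71.3%). In the 250 bases before the start, CCAAT was present in 7 of 8 placental cathepsins, against 33.8% of 32851 windows of the genome. TTTAAA was present in 7 of 8 against 12.1%. TATATA was present in 21 of 25 windows of the prolactin family, against 5.2% of all windows. Since the motifs were chosen after windows of these families had been read, nothing is read from these shares. These matches describe the letters of the windows and do not show that a factor binds there. Elsewhere in the genome, Krt8 and Krt18 are neighbours on chromosome 15, Cdx2 lies on chromosome 5, Gata3 on 2, Ascl2 on 7 and Hand1 on 11, and the protein-coding gene next to Plac1 on the X chromosome is Hprt itself.

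The values below are log2 signals after background correction and quantile normalization, and a probe counted as detected on an array when its detection p-value was under 0.05. Between 18827 and 22202 probes were detected on an array, arrays of 1 condition correlated with r between 0.989 and 0.996, and the median SD over 3 arrays was between 0.0979 and 0.12. The targeted gene, listed as Hprt1, was lower in knockdown than control cells by 4.09 on the log2 scale in ES cells, 1.76 in SNM and 4.45 at the neuronal stage (limma adjusted p = 7.15e-15, 3.86e-11 and 9.64e-17). The pluripotency factors Pou5f1 and Nanog were detected in both kinds of ES cell and differed by 0.03 and -0.13 (limma adjusted p = 0.833 and 0.292). Of the 10 genes, 7 were detected on all 3 arrays of at least 1 condition and 3 (Hand1, Ascl2 and Tpbpa) on none, so the name of the set is carried by only part of its defining genes.

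**Figure D1:**
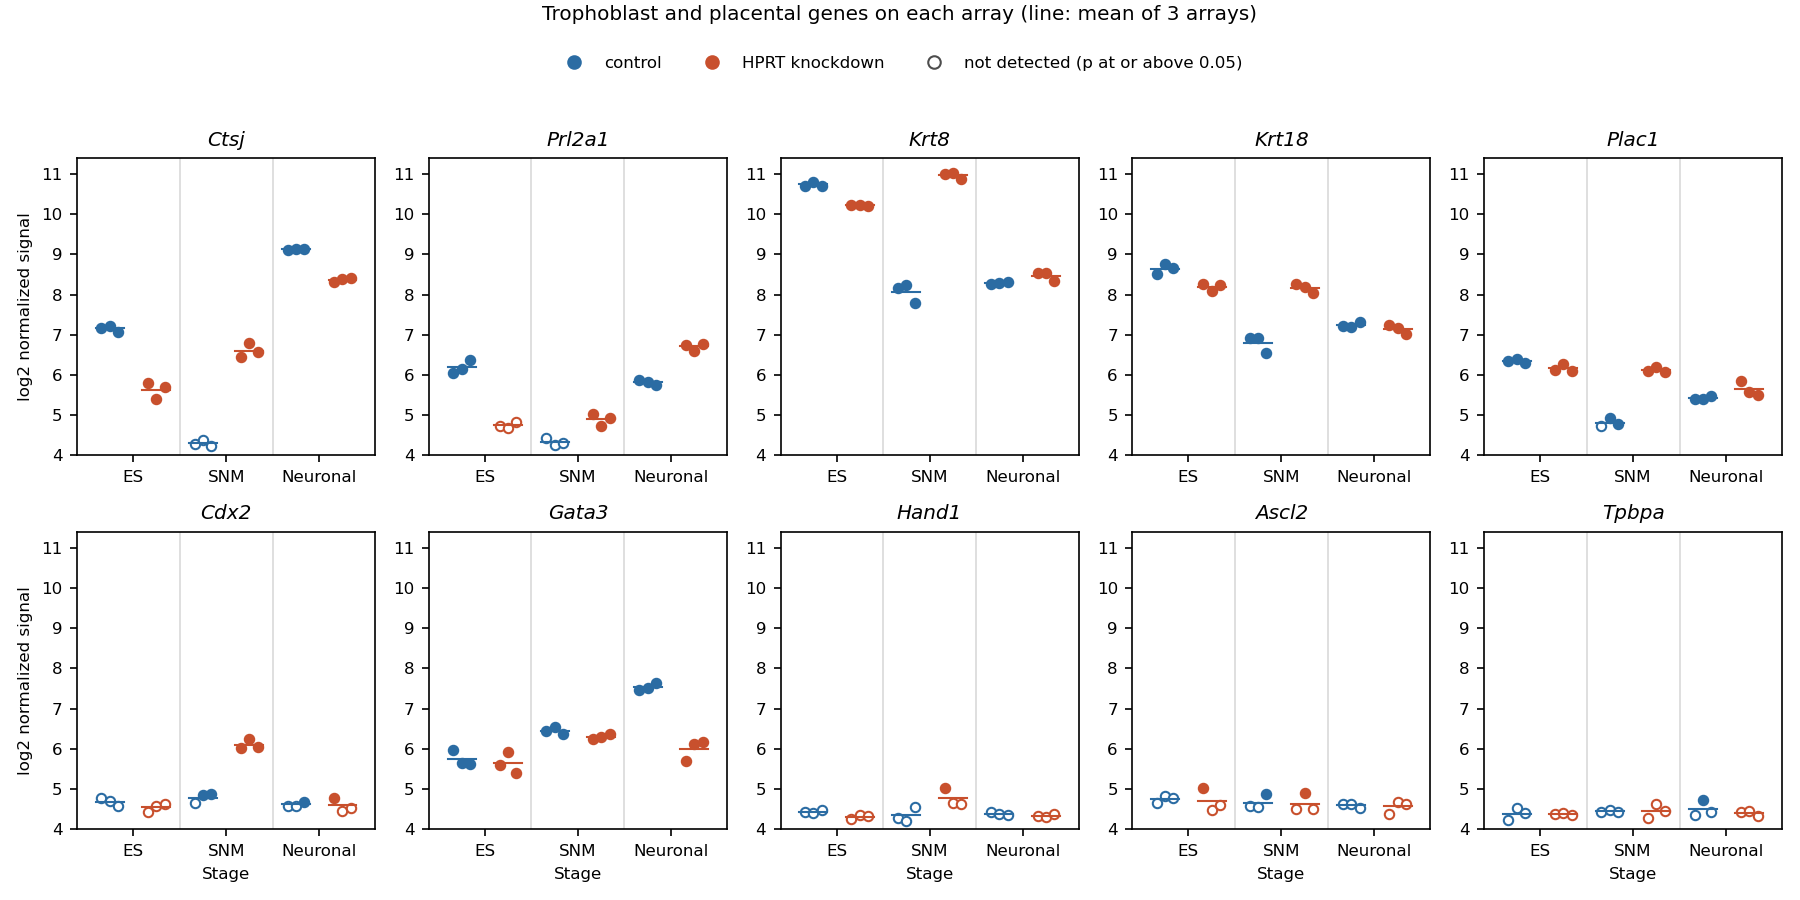
Log2 normalized signal (vertical axis) of each of the 10 genes in a panel of its own, with 1 point per array, control in blue and HPRT knockdown in orange at the ES, SNM and neuronal stages; lines are means of 3 arrays and open points were not detected. Krt8, Krt18, Plac1, Cdx2 and Ctsj are higher in knockdown than control SNM, Gata3 is lower in knockdown neuronal cells, and Hand1, Ascl2 and Tpbpa stay between 4.21 and 5.03.

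In ES cells, the placental cluster genes Ctsj and Prl2a1 were both lower in the knockdown. Ctsj, a cysteine protease of the placenta, read 7.16, 7.23 and 7.08 on the control arrays and 5.80, 5.40 and 5.70 on the knockdown arrays, a log2 difference of -1.52 (SE 0.10, 2.87-fold). The ranges were apart, with all 6 arrays detecting it. Prl2a1, a hormone-like protein of the prolactin family, read 6.06, 6.15 and 6.36 in control and 4.72, 4.69 and 4.84 in knockdown ES cells, where it was detected on none of the 3 arrays. Its level was thus at least 2.39-fold lower, with a measured difference of -1.44. The size of both differences depended on the background correction: without it, that of Ctsj was -0.96 or -0.90 and that of Prl2a1 -0.70 or -0.60, with quantile normalization or with scaling to the 75th percentile.

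The other genes detected in ES cells differed less. Krt8 read 10.71, 10.81 and 10.70 in control and 10.24, 10.24 and 10.21 in knockdown cells (-0.51), and Krt18 read 8.51, 8.75 and 8.67 against 8.27, 8.09 and 8.24 (-0.44). Control and knockdown readings of both keratins were apart, by less than 1.5-fold. Plac1 read 6.34, 6.38 and 6.29 against 6.12, 6.27 and 6.10 (-0.17), just without overlap. Gata3 read 5.98, 5.65 and 5.62 against 5.60, 5.92 and 5.39 (-0.11), and its arrays overlapped. The direction for Gata3 rested on single arrays, turning to 0.00339 without control array 1 and 0.0106 without knockdown array 3. Cdx2 lay between 4.42 and 4.78 in ES cells and was detected on none of those 6 arrays. In all, 6 of 6 measured genes had a lower mean in knockdown ES cells, against 48.3% of 18411 probes, and 2 of 6 were at least 1.5-fold lower, against 1.24%. Nothing is read from these shares, since this contrast chose the genes.

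In SNM the direction was opposite to that in ES cells for Krt8, Ctsj, Krt18 and Plac1, which were higher in knockdown than in control cells, and Cdx2 was higher as well. These were 5 of the 7 genes tested, where 11% of 20765 probes were called higher and 19.9% were called in either direction (limma adjusted p under 0.05 and at least 1.5-fold). The median difference of the 7 genes was 1.31, against -0.04 over all probes tested. All 7 were detected on every knockdown SNM array, but only 3 on every control SNM array. Ctsj, Prl2a1, Cdx2 and Plac1 thus entered the test only through the condition where they read higher. The count and the median partly follow from that filter, and nothing is read from them. Krt8, the filament protein of simple epithelia, read 8.17, 8.25 and 7.80 on control and 10.99, 11.04 and 10.87 on knockdown arrays, and rose 7.43-fold (log2 difference 2.89, SE 0.09, limma adjusted p = 1.02e-12). Its partner Krt18 read 6.91, 6.93 and 6.55 against 8.26, 8.19 and 8.04, and rose by 1.37 (limma adjusted p = 1.33e-08). The highest control array of either keratin lay clearly below the lowest knockdown array.

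Ctsj was detected on none of the 3 control SNM arrays, with readings of 4.27, 4.38 and 4.24, and on all 3 knockdown arrays, with 6.43, 6.79 and 6.56. It was therefore at least 3.56-fold higher in knockdown SNM (measured difference 2.30, limma adjusted p = 2.13e-11). The second cluster gene, Prl2a1, was detected at 5.03, 4.74 and 4.93 in knockdown SNM and on no control array (4.44, 4.25 and 4.31). Its difference of 0.57 had a limma adjusted p of 6.18e-05 but was under 1.5-fold (at least 1.10-fold), so it was not called. Plac1 read 4.72, 4.93 and 4.79 in control SNM, detected on 2 of 3 arrays, and 6.10, 6.19 and 6.08 in knockdown SNM, a rise of 1.31 (limma adjusted p = 2.93e-09). The 2 cell types did not overlap for any of these 3 genes. The bound for Ctsj holds on the background-corrected scale. Without that correction the difference of Ctsj was 1.28 with quantile normalization and 1.36 with scaling to the 75th percentile, and that of Plac1 0.63 and 0.70, with the calls kept.

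Among the transcription factors, Cdx2 rose in knockdown SNM. It read 4.64, 4.84 and 4.87 on control arrays, 2 of which detected it, and 6.01, 6.25 and 6.04 on knockdown arrays, a difference of 1.31 (limma adjusted p = 1.29e-08) that was 0.63 or 0.70 without background correction and still called. Knockdown SNM were the only condition with Cdx2 detected on all 3 arrays. Gata3 read 6.44, 6.54 and 6.37 in control and 6.24, 6.30 and 6.36 in knockdown SNM, a difference of -0.15 that did not pass the test (limma adjusted p = 0.357). Hand1 was detected on 1 array of the experiment, knockdown SNM array 1, at 5.03.

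**Figure D2:**
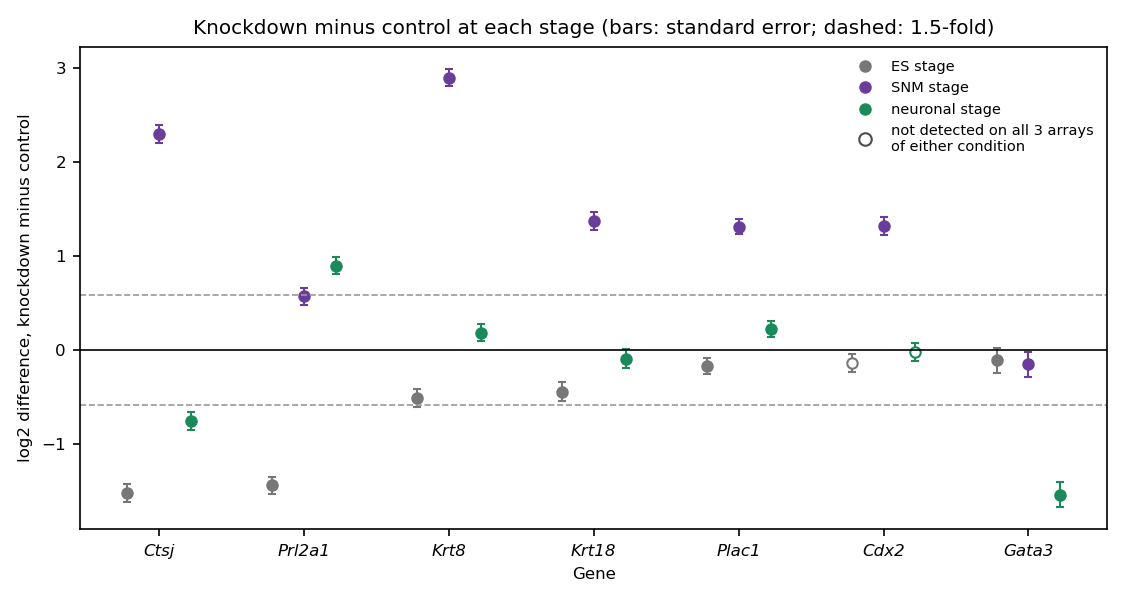
Log2 difference between knockdown and control cells (vertical axis; bars are 1 standard error of the fit, dashed lines 1.5-fold) for the 7 genes detected in at least 1 condition, with the ES stage in grey, SNM in purple and the neuronal stage in green; open points were detected on all 3 arrays of neither condition. In SNM 5 genes lie above the upper dashed line, led by Krt8 at 2.89 and Ctsj at 2.30, and at the neuronal stage Prl2a1 is higher (0.89) while Ctsj (-0.75) and Gata3 (-1.54) are lower.

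At the neuronal stage the genes parted. Of 6 tested, 1 (Prl2a1) was higher in knockdown cells and 2 (Ctsj and Gata3) were lower, where 13.9% and 13.5% of 20893 probes were called in those directions (27.4% in either). Their median difference was 0.04 and that of all probes 0.01. Ctsj read 9.10, 9.14 and 9.13 in control and 8.32, 8.38 and 8.42 in knockdown cells, a log2 difference of -0.75 (limma adjusted p = 4.68e-06). Prl2a1 went the other way, from 5.87, 5.81 and 5.75 in control to 6.75, 6.60 and 6.78 in knockdown cells, a rise of 0.89 (limma adjusted p = 2.94e-07). That call was lost without background correction, where the difference was 0.55 with quantile normalization and 0.58 with scaling to the 75th percentile. The 2 genes of chromosome 13 thus differed in opposite directions in the same RNA pools.

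Gata3 showed the largest neuronal difference of the set. It read 7.47, 7.52 and 7.62 in control cells, its highest level in the experiment, and 5.71, 6.12 and 6.16 in knockdown cells, 2.91-fold lower (log2 difference -1.54, limma adjusted p = 5.77e-08). The epithelial genes differed by less than 1.5-fold between the cell types. Krt8 read 8.27, 8.28 and 8.31 in control and 8.54, 8.53 and 8.33 in knockdown cells (0.18, limma adjusted p = 0.109), and Krt18 read 7.22, 7.18 and 7.31 against 7.23, 7.16 and 7.02 (-0.10, limma adjusted p = 0.429). Plac1 read 5.40, 5.41 and 5.48 against 5.86, 5.58 and 5.51, and its difference of 0.22 had an adjusted p of 0.0323 in limma but was under 1.5-fold. Cdx2 was detected on 1 of 3 arrays in each cell type and was not tested.

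The knockdown effect at the neuronal stage was then set against that in SNM with the model's interaction term. It was called lower at the neuronal stage for 6 of 7 genes, against 14.8% of 22160 probes called lower and 28.6% called in either direction. Hprt1 itself shifted by -2.69 (limma adjusted p = 7.21e-12), so the knockdown was not of the same size at the stages compared. The part of this inequality in the shifts of the other genes was not tested. For Ctsj, not detected in control SNM, the shift was at least 2.59 downward (measured -3.05, limma adjusted p = 2.28e-11), and it measured as little as -1.96 without background correction. It was -2.71 for Krt8 (SE 0.13, limma adjusted p = 6.77e-11). It was -1.46 for Krt18, -1.39 for Gata3 and -1.09 for Plac1. The -1.33 of Cdx2 rests on neuronal arrays of which 1 of 3 in each cell type detected it, and was as little as -0.65 without background correction. Cdx2 entered this test through knockdown SNM alone. For Ctsj the knockdown effect itself turned from higher to lower. Gata3 was called at the neuronal stage and not in SNM, and the other 4 in SNM and not at the neuronal stage. The shift of Plac1 was under 1.5-fold without background correction (-0.52 with quantile normalization, -0.58 with scaling to the 75th percentile). Prl2a1 moved the other way, by 0.33, with no control SNM array detecting it, and was not called (limma adjusted p = 0.0450).

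From ES cells to SNM the values are given without a test for any of the 10 genes, because ES arrays chose the set. In control cells the means of Krt8, Krt18 and Plac1 were lower in SNM than in ES cells, by log2 differences of -2.67, -1.85 and -1.52. In knockdown cells Krt8 was 0.74 higher, and Krt18 and Plac1 differed by -0.04 each. Cdx2, below detection in knockdown ES cells, was at least 2.24-fold higher in knockdown SNM. Gata3 was 0.70 higher in control and 0.66 higher in knockdown SNM, and the latter was 0.54, under 1.5-fold, without knockdown ES array 3. Ctsj and Prl2a1 went from detected to not detected in control cells, at least 5.26-fold lower for Ctsj and at least 2.69-fold lower for Prl2a1. In knockdown cells Ctsj was 0.96 higher in SNM. As background, 49.1% of the 20703 probes tested in control cells were called in this step, 23.7% higher and 25.4% lower, and 57.3% of 21467 in knockdown cells, 26.4% higher and 30.9% lower.

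From SNM to the neuronal stage, Ctsj and Prl2a1 rose in both cell types. Ctsj rose at least 20.6-fold in control cells, where it had not been detected in SNM, and by 1.78 on the log2 scale in knockdown cells (limma adjusted p = 6.69e-16 and 1.72e-10). Prl2a1 rose at least 2.07-fold in control cells and by 1.81 in knockdown cells (limma adjusted p = 6.76e-10 and 5.83e-11). The epithelial genes and Cdx2 fell in knockdown cells: Krt8 fell by 2.50, Cdx2 fell by 1.51 and Krt18 fell by 1.02 (limma adjusted p = 2.03e-12, 1.09e-09 and 1.93e-07). In control cells Krt8 differed by 0.21 (limma adjusted p = 0.0588), Krt18 by 0.44 (under 1.5-fold), Plac1 rose by 0.62 (limma adjusted p = 8.33e-06) and Gata3 rose by 1.09 (limma adjusted p = 3.30e-06). In knockdown cells Gata3 differed by -0.30 (limma adjusted p = 0.0649) and Plac1 by -0.47, under 1.5-fold. The call for Plac1 in control cells was lost without background correction (0.27 and 0.28) and without control SNM array 1 (0.57). The bound for Ctsj in control cells holds for the main processing only. Its measured difference of 4.83 was as little as 3.35 under the other settings run, with the call kept. Without background correction the differences of Prl2a1 shrank to as little as 0.77 in control and 0.97 in knockdown cells, and that of Cdx2 to -0.73, with the calls kept. Of 20697 probes tested in control cells 29.4% were called, 14.3% higher and 15.1% lower, beside 4 of the 10 genes higher. There Ctsj, Prl2a1 and Plac1 entered the test only through the neuronal stage, where they read higher. Of 21125 probes in knockdown cells 28.6% were called, 13.8% higher and 14.8% lower, beside 2 of the 10 genes higher and 3 lower. In those cells Cdx2 entered the test through SNM alone.

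Ordered by level, Ctsj was highest in control neuronal cells, followed by knockdown neuronal cells, control ES cells, knockdown SNM, knockdown ES cells and control SNM, with no overlap between neighbours in that order. Krt8 had a different order with no overlap either, from knockdown SNM through control ES, knockdown ES, knockdown neuronal and control neuronal cells to control SNM. Krt18 was highest in control ES cells and lowest in control SNM, while knockdown ES cells and knockdown SNM overlapped, as did the 2 neuronal conditions. Plac1 ran from control ES cells to control SNM in the same way, with overlap between knockdown ES cells and knockdown SNM. For Prl2a1 knockdown neuronal cells came first and control SNM last, and knockdown SNM and knockdown ES cells overlapped. Gata3 was highest in control neuronal cells, then in control and knockdown SNM, and its last 3 conditions (knockdown neuronal, control ES and knockdown ES cells) overlapped. Of the 7 measured genes, 5 (all but Gata3 and Cdx2) had their lowest mean in control SNM.

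Over the 18 arrays, which share RNA pools and conditions, Krt8 and Krt18 correlated with r = 0.949, Krt18 and Plac1 with 0.926, Krt8 and Plac1 with 0.888, and Ctsj and Prl2a1 with 0.821. The cluster genes and the keratins were less alike, with r = -0.13 for Ctsj and Krt8, and Gata3 and Krt8 correlated at -0.55. Among 23165 other probes, those most like each gene by Pearson's r were as follows. For Ctsj they were 9530064J02 and Lmna (both 0.991) and Arhgdib (0.970), and for Prl2a1 they were LOC381150 (0.922), Bmper (0.913) and Prl2c5 (0.910), the last from the same hormone family. For Krt8 they were Lrrc48 (0.970), Cd55 (0.957) and E030040G24Rik (0.953), and for Krt18 E030040G24Rik (0.971), Ddb2 (0.963) and Ddost (0.956). For Plac1 they were Pdzk1 (0.946), Ddhd2 (0.942) and Zfp715 (0.930), for Cdx2 Fezf2 and 4921528I01Rik (both 0.972) and Bbox1 (0.970), and for Gata3 Bves (0.972), 1700012H17Rik (0.971) and Serpini1 (0.970). These values are a description of 6 conditions and carry no test.

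Tpbpa, Hand1 and Ascl2 were not detected on all 3 arrays of any condition. Tpbpa, a spongiotrophoblast protein encoded beside Ctsj, read between 4.22 and 4.71 and was detected on 1 array, in control neuronal cells. Hand1 read between 4.21 and 5.03. The brightest of 3 Ascl2 probes read between 4.37 and 5.02 and was detected on 1 of 3 arrays in knockdown ES cells, control SNM and knockdown SNM, and the other 2 probes were detected on no array. No comparison was made for these 3 genes.

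The cathepsin and prolactin clusters of chromosome 13 hold further genes of the same kind. Of the 7 other placental cathepsins on the array, Ctsq and Ctsr were detected. Ctsq, the neighbour of Ctsj, lay at 6.73 to 6.93 in control and 4.84 to 5.20 in knockdown neuronal cells, a log2 difference of -1.87 (limma adjusted p = 2.26e-10). It was not detected in ES cells or control SNM and lay at 4.74 to 4.89 in knockdown SNM. From SNM to the neuronal stage Ctsq rose at least 4.22-fold in control cells (limma adjusted p = 7.73e-12), while its difference of 0.14 in knockdown cells was under 1.5-fold. Both Ctsj and Ctsq had their highest mean in control neuronal cells. Ctsr had means between 4.82 and 5.12 in the 6 conditions and was called in no comparison.

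**Figure D3:**
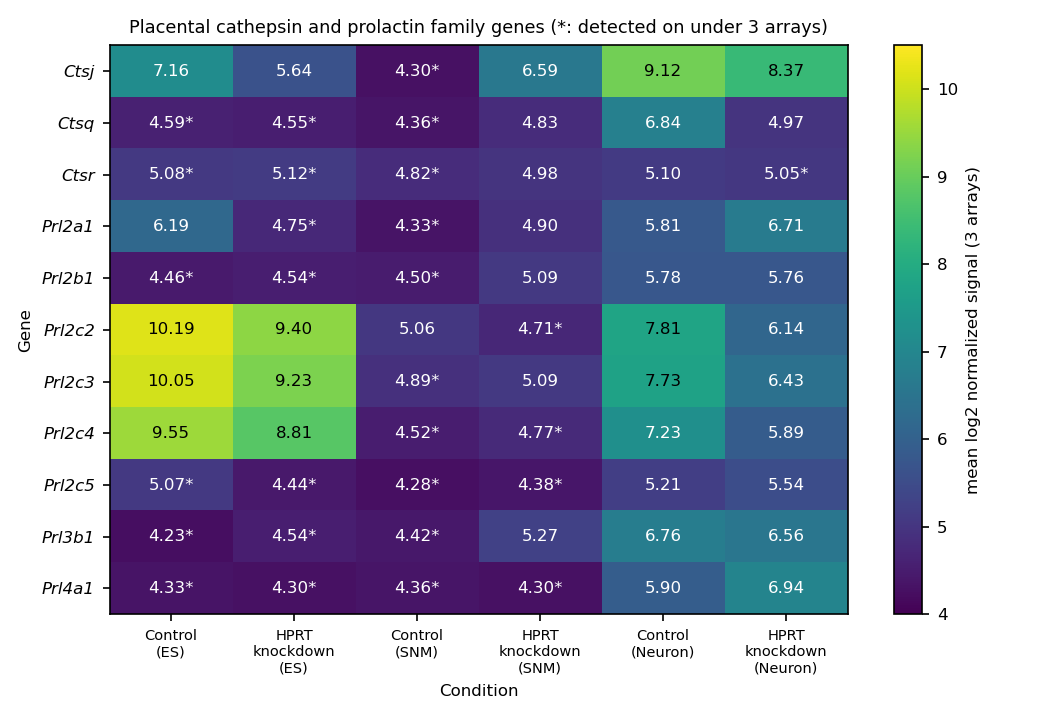
Mean log2 normalized signal of 3 arrays, printed and as a colour scale, for Ctsj, Prl2a1 and the other detected cathepsin and prolactin family genes (rows) in the 6 conditions (columns); an asterisk marks values detected on under 3 arrays, and colours compare within a row only, since probes differ in brightness. Ctsj and Ctsq peak in control neuronal cells (9.12 and 6.84), Prl2c2, Prl2c3 and Prl2c4 in control ES cells, and Prl2a1 and Prl4a1 in knockdown neuronal cells (6.71 and 6.94).

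Of 22 other prolactin family genes on the array, 7 were detected: Prl2b1, Prl2c2, Prl2c3, Prl2c4, Prl2c5, Prl3b1 and Prl4a1. All 7 rose from SNM to the neuronal stage in both cell types, with median log2 differences of 2.33 in control and 1.29 in knockdown cells, where 14.3% and 13.8% of all probes were called higher. Of the 7, 1 was detected on every control SNM array and 3 on every knockdown SNM array. The others were tested only through the neuronal stage, where they read higher. Prl2c2, Prl2c3 and Prl2c4 encode proliferins, growth factors of trophoblast giant cells that cultured fibroblasts also make. They are near-identical copies, so their probes may read one another's RNA and their separate values are uncertain. In ES cells Prl2c2 read 10.13 to 10.30 in control and 9.32 to 9.48 in knockdown cells, a log2 difference of -0.80 (limma adjusted p = 6.06e-05). Prl2c3 and Prl2c4 differed by -0.83 and -0.74 (limma adjusted p = 0.000123 and 0.000504). At the neuronal stage Prl2c2, Prl2c3 and Prl2c4 were again lower in the knockdown, with differences of -1.67, -1.30 and -1.35 (limma adjusted p = 1.81e-10, 1.81e-08 and 2.60e-08). Prl4a1 went with Prl2a1 instead. It was detected at the neuronal stage alone, at 5.78 to 6.02 in control and 6.72 to 7.06 in knockdown cells, a log2 difference of 1.03 (limma adjusted p = 2.05e-08). Prl3b1, the placental lactogen of later gestation, was at least 1.42-fold higher in knockdown than control SNM (limma adjusted p = 1.08e-05), a call lost without background correction.

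A wider list of 97 trophoblast and placenta genes outside the set had 87 on the array and 39 detected in at least 1 condition. In ES cells 29 were tested and 4 were called lower (Prl2c2, Prl2c3, Prl2c4 and Rhox6), against 1.17% of all probes called lower, 0.516% higher and 1.68% in either direction. Prl2c2, Prl2c3 and Prl2c4 are near-identical copies, so their calls may not be separate. The call of Prl2c4 was lost by the methods' t-test after Benjamini-Hochberg (adjusted p = 0.0601). The median of the 29 was -0.12 and that of all probes 0.01. Rhox6, an X-linked homeobox gene of placenta and germ cells, read 7.30 to 7.43 in control and 6.40 to 6.66 in knockdown ES cells (-0.83, limma adjusted p = 5.57e-05), a call lost with scaling to the 75th percentile (-0.56).

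In SNM 10 of 32 listed genes were called higher and 3 lower, with a median of 0.32, where 11% of all probes were higher and 8.90% lower. Of the listed genes 23 were detected on every control SNM array and 31 on every knockdown SNM array. Some, such as Krt19, thus entered the test only through the condition where they read higher. Krt19, another keratin of simple epithelia, was not detected in control SNM (4.62 to 4.81), read 9.05 to 9.35 in knockdown SNM and was thus at least 21.3-fold higher (limma adjusted p = 3.23e-14). Rhox9 was at least 2.19-fold higher. The desmosome protein Dsp (1.22) and the VEGF receptor Flt1 (1.14) followed (limma adjusted p = 6.46e-10 for Rhox9, 2.90e-06 for Dsp and 0.000606 for Flt1). Lower were the pregnancy-specific glycoprotein Psg23 (-0.92), Ldoc1 (-0.92) and the transcription factor Tcfap2a (-0.62), with limma adjusted p = 1.12e-07, 5.19e-08 and 2.37e-06. The mean over all probes of a gene ended the calls of Dsp, Flt1, Psg23, Ldoc1 and Tcfap2a. Calls were also lost without background correction for Ldoc1 (-0.43 and -0.47) and Tcfap2a (-0.50 and -0.52), for Tcfap2a without knockdown SNM array 2 (-0.57), and for Flt1 by the methods' t-test after Benjamini-Hochberg (adjusted p = 0.0615). Rhox9 differed by as little as 0.59 without background correction and was still called. The bound for Krt19 holds for the main processing only. Its measured difference of 4.49 was as little as 3.10 under the other settings run, with the call kept. Of the keratins and other epithelial proteins on the list, 7 of 9 tested were called higher in knockdown SNM. All 9 had a higher mean there. Of these genes, 6 were detected on every control SNM array and 9 on every knockdown SNM array. The count of calls partly follows from that filter, and nothing is read from it. Without background correction the calls of Cdh3, Spint1 and Cldn4 were lost under both normalizations, and that of Fgfr2 under percentile scaling alone. Those of Krt19 and Gjb2 held under every alternative.

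At the neuronal stage 6 of 37 listed genes were called higher and 14 lower, with a median of -0.24, where 13.9% and 13.5% of all probes were called in those directions. The 14 include Prl2c2, Prl2c3 and Prl2c4, whose calls may not be separate. Krt19 was still higher in the knockdown, at 6.89 to 7.22 against 4.74 to 4.84 (2.26, limma adjusted p = 3.31e-11), and Flt1 (1.18), Prl4a1 (1.03) and the tight junction protein Cldn4 (0.81) followed. The call of Flt1 was lost with the mean over its probes (0.57), and that of Cldn4 without background correction (0.48 and 0.50). The largest fall was that of Tcfap2c, a transcription factor of the trophectoderm, which read 9.58 to 9.61 in control and 7.42 to 7.61 in knockdown cells (-2.09, limma adjusted p = 4.94e-14). Ctsq (-1.87), Prl2c2 (-1.67) and the imprinted placental gene Peg10 (-1.38) came next. Of the 10 listed transcription factors tested, 6 were called lower and 1 (Tcfap2a) was called higher in knockdown neuronal cells, and Gata3 was lower as well. Without background correction the calls of Tead4 (-0.45 and -0.50), Dlx3 (-0.28 and -0.30), Rhox6 (-0.28 and -0.32) and Tcfap2a (0.48 and 0.47) were lost. Those of Dlx3, Rhox6 and Tcfap2a were also lost when single arrays were left out.

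**Figure D4:**
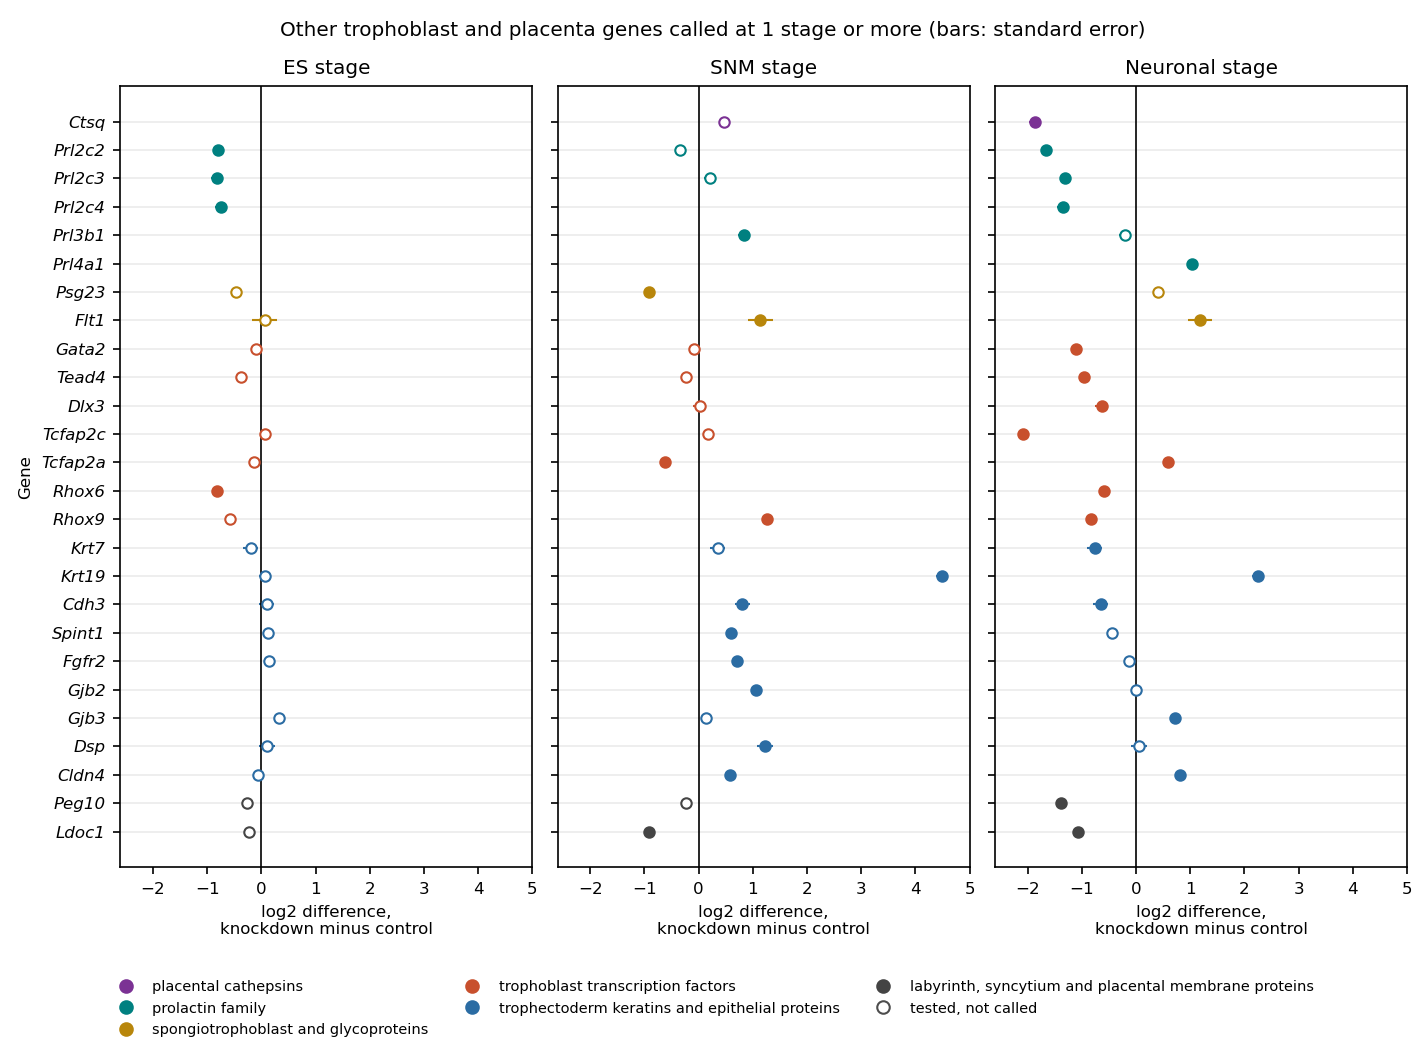
Log2 difference between knockdown and control cells (horizontal axis; bars are 1 standard error) for the listed placental genes outside the set that were called at 1 stage or more, in a panel for each stage and coloured by subgroup; filled points were called, open points were tested and not called, and genes without a point were not tested. Krt19 is the highest at the SNM (4.49) and neuronal (2.26) stages, and Tcfap2c has the lowest neuronal value (-2.09).

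Markers of other cell types moved with these results, and their part in them was not tested. Of 18411 probes tested in ES cells 1.68% were called, 0.516% higher and 1.17% lower. A lower mean in the knockdown was found for 48.3%, and 4761 had an unadjusted limma p under 0.05. There 0 of 5 feeder fibroblast genes tested were called by limma, with 3 at an unadjusted p under 0.05 and 0 by the methods' t-test. The summed linear signal of the 10 feeder genes was 331 to 378 on control and 248 to 274 on knockdown arrays, with Dcn at -0.57 and Col3a1 at -0.54 (limma adjusted p = 0.0279 and 0.0371, both under 1.5-fold). The summed feeder signal was lower beside the lower Ctsj, Prl2a1 and proliferins. Only 5 of the 10 feeder genes were detected on every control ES array. In control SNM the same sum was 6660 to 7260, while Ctsj and Prl2a1 were not detected there. The part of feeder cells in these values was not tested. Visceral and primitive endoderm, which makes Krt8 and Krt18, also read lower beside those keratins. Of its 10 genes tested 8 had a lower mean in knockdown ES cells. An unadjusted limma p under 0.05 was found for 8, but these include Amn, the 1 gene called, which was higher by 0.60. The summed signal of 13 genes was 12900 to 13900 in control and 10100 to 11100 in knockdown cells. Of 8 genes of stratified and other epithelium tested, 2 fell in knockdown ES cells, Krt14 with a difference of -0.74 and Krt17 with -0.60 (limma adjusted p = 0.00761 and 0.000185). The 10 pluripotency genes gave 0 calls by limma in ES cells, 0 at an unadjusted p under 0.05 and 0 by the methods' t-test.

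In SNM the rise of Krt8, Krt18, Krt19, Plac1, Cdx2 and Ctsj stood beside called markers of endoderm, epithelium and mesoderm, where 11% of all probes were called higher and 8.90% lower. Of 11 visceral and primitive endoderm genes tested 5 were called higher and 1 lower in knockdown SNM, led by Ttr (2.87), Gata6 (1.92) and Cubn (1.56, at least 2.45-fold), with limma adjusted p = 1.45e-13, 2.63e-10 and 1.84e-10. The summed endoderm signal overlapped, at 3220 to 3770 in control and 3340 to 3650 in knockdown SNM. Of 10 genes of stratified and other epithelium 3 were called higher and 1 lower. Krt14 rose by 3.42 (limma adjusted p = 8.28e-11), and the lowest value was -1.02. Of 4 heart and mesoderm genes tested 2 were called higher. Genes of the endoderm, epithelium and mesoderm lists detected on every control SNM array were 8, 6 and 2. On every knockdown SNM array they were 11, 10 and 4, so some were tested through that condition alone. The primitive streak gene T rose by 3.42 (limma adjusted p = 8.96e-13), and the summed signal of the heart and mesoderm list was 613 to 671 on control and 2980 to 3380 on knockdown arrays. The summed fibroblast signal was 6660 to 7260 against 7460 to 9110, and 5 of 9 pluripotency genes were lower.

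At the neuronal stage 13.9% of all probes were called higher and 13.5% lower. There the lower Ctsj and Gata3, and the higher Prl2a1, stood beside 7 of 10 fibroblast genes called lower. The summed fibroblast signal was 22200 to 25400 in control and 11700 to 14900 in knockdown cells. Of the heart and mesoderm genes 6 were tested, 1 was called higher and 2 lower. T was higher by 4.24, Isl1 was lower (-2.81) and Myh6, a cardiac myosin, was at least 1.87-fold lower (limma adjusted p = 1.22e-14, 1.53e-12 and 5.38e-05), and the summed signal of that list was 363 to 406 in control and 705 to 833 in knockdown cells. Of 4 genes of sympathetic and autonomic neurons tested, Prph was higher (1.76) and Phox2a (-1.56) and Chga (-0.65) were lower (limma adjusted p = 2.86e-09, 3.40e-07 and 0.0157). Of 10 endoderm genes tested 6 were higher, and of 9 pluripotency genes 7 were lower and 1 higher.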

How the data were processed

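The 18 arrays covered both cell types at 3 stages. The authors deposited the bead-averaged signal intensity of every probe, neither background-subtracted nor normalized, with its detection p-value. Probe annotation was read from another table, in which 72 columns of values name no sample and were not used. The conditions and array numbers were read from the sample titles.

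Signals were processed in R 4.3.3 by the neqc function of limma 3.58.1 (background from the detection p-values, offset 16, quantile normalization, log2), which raises differences of dim probes relative to uncorrected values. One linear model held the 6 conditions of all arrays (lmFit, contrasts.fit, eBayes). A comparison tested the probes that every array of either condition had detected (detection p-value under 0.05), and a call needed an adjusted p under 0.05 by Benjamini-Hochberg over all of them and a change of at least 1.5-fold. Tests were two-sided. The number of arrays limits the precision, and an exact permutation test of 3 against 3 arrays cannot go below p = 0.1. A gene was represented by its brightest probe. Where a condition detected a probe on none of 3 arrays, the fold change is a lower bound against the lowest detected signal of each of its arrays or the probe's own signal, whichever was higher. The steps were tested on simulated data. The tests planned for members from ES cells to SNM were not used, since ES arrays chose the set.

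The members and gene lists were chosen with earlier results of these data known. Besides the members and Hprt1, the genes named are, for each stage, up to 4 of the largest rises and falls among called genes of the placental list, the detected cathepsin and prolactin family genes, the 3 probes most like each measured member, and up to 3 genes with the largest change in each marker list. A few further markers (Pou5f1, Nanog, Dcn and Col3a1) and called epithelial genes of the placental list (Gjb2, Cdh3, Spint1 and Fgfr2) are also given. So are 2 called transcription factors of that list whose calls depended on the processing (Tead4 and Dlx3). Marker lists covered pluripotency, endoderm, epithelium, heart and mesoderm, sympathetic neurons and feeder fibroblasts.

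Deviations of equal-numbered knockdown and control arrays from their condition means were correlated. The values were 0.486, 0.108 and 0.489 in SNM, 0.605, 0.0938 and 0.325 at the neuronal stage, and -0.0938, 0.0254 and 0.0959 in ES cells. The array number thus partly paired the arrays of both later stages. Alternatives were the replicate block, other background corrections and scalings, no detection filter, other fold limits, the mean over probes, a fit of the compared arrays alone, the methods' t-test and leaving out each array. Upstream sequences came from a RefSeq table on GRCm38.p6, in which 10 of 10 members were found by symbol and 9 had a window; they were aligned with Biopython 1.88. The build behind the probe annotation was not given in the sources used here, and the RNA-Seq experiment was not analysed here.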

Additional observations from a re-analysis of the deposited data

Results flagged for a closer look

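Among the genes followed, 6 had a knockdown effect that differed between the SNM and neuronal stages by limma's test of the difference itself. The lowering of Hprt1 also differed between these stages, by -2.69, and its part in the changes below was not tested. The log2 difference between knockdown and control cells went from a measured 2.30 to -0.75 for Ctsj, a change of -3.05 (limma adjusted p = 2.28e-11). Since no control SNM array detected Ctsj, the first value is a bound of at least 1.83 and the change one of at least 2.59 in size. Without background correction the change was as small as -1.96. It went from 2.89 to 0.18 for Krt8 (-2.71, limma adjusted p = 6.77e-11) and from 1.37 to -0.10 for Krt18 (-1.46, limma adjusted p = 2.91e-07). For Cdx2 it went from 1.31 to -0.02 (-1.33, limma adjusted p = 5.16e-07, as small as -0.65 without background correction), the second value coming from conditions in which 1 of 3 arrays detected it, and for Plac1 from 1.31 to 0.22 (-1.09, limma adjusted p = 1.17e-06). Gata3 differed in that its change of -1.39, from -0.15 to -1.54, lay at the neuronal stage (limma adjusted p = 1.66e-05).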

How the results depend on the processing

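The count of members called held within 1.5 times under every alternative run in SNM and for the change between stages (5 to 6 and 5 to 7). With the replicate block the members called were 5 in SNM, 3 at the neuronal stage and 6 for the change of the knockdown effect, and the block changed no call. Without a minimum change, 6 members were lower in ES cells in place of 2. At 2-fold, 1 member was called at the neuronal stage in place of 3. Gata3 in ES cells ranged from -0.25 to 0.0106 over the arrays left out, against -0.11 with all, and reversed without control array 1 (0.00339) or knockdown array 3 (0.0106). Of the other placental genes, 4 were called in ES cells, 0 by limma at 2-fold, where no difference of theirs reached that size at any p, and 9 without a minimum change. In SNM 13 became 7 with quantile normalization and 6 with scaling to the 75th percentile, both without background correction, 5 at 2-fold, 23 without a minimum and 5 with the mean over probes. At the neuronal stage 20 became 11 with either of those normalizations and 11 at 2-fold. The cause was not tested beyond the construction of each alternative. Leaving out each array gave 2 to 2 members in ES cells, 5 to 6 in SNM, 3 to 3 at the neuronal stage and 6 to 6 for the change between stages. Other placental genes called were then 4 to 6 in ES cells, 12 to 14 in SNM and 17 to 21 at the neuronal stage. The methods' t-test gave 5 members in SNM and 3 at the neuronal stage, both unadjusted and after Benjamini-Hochberg. Of 73 single-gene results, 38 kept direction and call under every alternative, 32 lost the call under at least 1, and 1 reversed. The ES values of Ctsj and Prl2a1 moved without background correction, that of Prl2a1 also without quantile normalization (-1.18). The 73 include member results from ES cells to SNM, whose calls are not used here. The 38 include the untested ES values of Krt8, Krt18 and Plac1, which had no call to keep. Dim probes near the detection limit leave only lower bounds on the fold changes.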
